A study of Homo sapiens with 6 samples.

Results

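Genes that cells switch on when oxygen is short, and the glycolytic genes among them, were examined in JIMT-1 cells, an established line of human breast cancer cells that carries the HER2 receptor at a high level. The members were chosen by symbol: ADM, ENO1, LDHA, SLC2A1, VEGFA, P4HA1, NDRG1, TPI1, PGAM1 and ALDOA. Of these 10 genes, 5 were found in the table of 758 genes analysed here (ENO1, ALDOA, SLC2A1, ADM and VEGFA), and the other 5 were not analysed here. The CTL group held 3 samples treated with PBS, and the aCT1 group held 3 samples treated with 250 µM aCT1, each for 24 h. aCT1 is a cell-penetrating peptide that mimics the tail of connexin 43, a gap junction protein, with antennapedia residues for uptake. All samples came from 1 cell line kept in routine culture, neither group was labelled as exposed to low oxygen, and the control received vehicle without a peptide. RNA was quantified with an nCounter breast cancer panel, in which barcoded probes are counted one by one.

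In well-oxygenated cells, prolyl hydroxylases (the EGLN enzymes) mark the alpha subunits of hypoxia-inducible factor (HIF) for degradation. When oxygen falls, HIF1A and EPAS1 protein accumulates, pairs with an ARNT subunit and binds short DNA elements at target genes, raising glucose uptake, glycolysis and blood vessel growth. The HIF1A subunit is set mainly at the level of its protein, and many tumour cells express the target genes at a high level in ordinary culture.

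The recovered probe counts, the counts before the authors' normalization, totalled 1437572 to 1494919 per sample. The label of the cells was checked against markers. All 7 epithelial and HER2-positive markers found in the table had a mean above 50 normalized counts, with ERBB2 at 9398 and GRB7 at 9985, while the 3 leukocyte markers had means of at most 41.9 and the 3 fibroblast markers of at most 19.8. Among the 4 endothelial markers, PECAM1 had a mean of 67.1, and the others were at or below 18.5. The summed epithelial markers ran from 38263 to 40589 normalized counts in CTL and from 39269 to 42937 in aCT1. The study's general statistics defined n as independent experiments, but its account of this assay counted samples, and separate cultures were not stated for them. The p-values therefore measure the spread between these samples, which may be technical.

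None of the 5 members passed the test. In limma over the whole table, 0 of 5 members had an adjusted p under 0.05, against 0.0% of all 758 genes, and 0 of 5 had an unadjusted p under 0.05, against 9.37% of all genes (71 genes, the same number as in edgeR, with 6.46% of all genes higher and 2.9% lower in aCT1). The median log2 change of the members, aCT1 minus CTL, was -0.039, beside 0.018 over all genes of the table. Its sign rested on single samples: it was 0.058 without CTL replicate 3, 0.015 without aCT1 replicate 3 and -0.10 without CTL replicate 1. With median centring of the samples it was -0.14. The values ran from -0.11 for SLC2A1 to 0.036 for ALDOA, and 4 of the 5 were below 0, where 41.2% of all genes were. In ENO1 and SLC2A1, every aCT1 value lay below every CTL value, a pattern seen in 4.88% of all genes. The table as a whole had more genes separated upwards, 9.37%, than downwards.

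**Figure D1:**
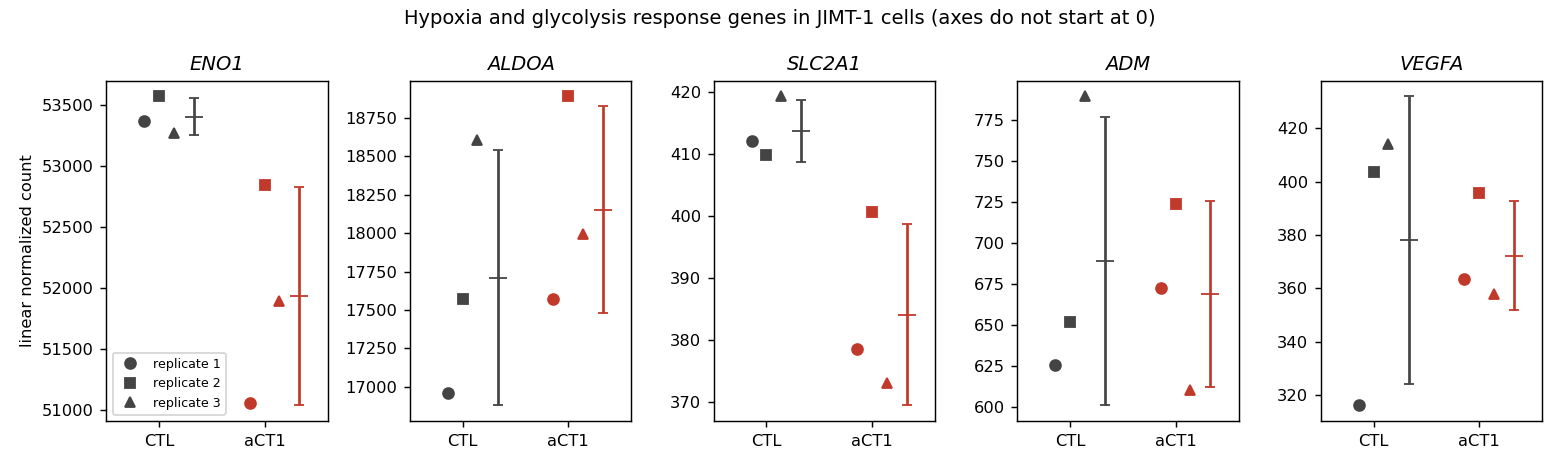
Linear normalized counts (y axis, a separate scale for each gene that does not start at 0) of the 5 members in each of the 3 CTL samples (grey) and 3 aCT1 samples (red), with the mean and SD beside the points. In ENO1 and SLC2A1 the aCT1 points sit below the CTL points, and in ALDOA, ADM and VEGFA the groups overlap.

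ENO1 encodes enolase 1, the enzyme that makes phosphoenolpyruvate near the end of glycolysis. It had rank 2 by mean among the 758 genes, and its probe took 3.51% to 3.67% of all counts in a sample. Each gene is read by its own probe and probes capture their targets with different efficiency, so such ranks order signals and not numbers of transcripts. The CTL samples had 53376, 53574 and 53273 normalized counts and the aCT1 samples had 51055, 52848 and 51891. The groups did not overlap, but the highest aCT1 sample came within a short distance of the lowest CTL sample. The mean was 53408 ± 153 in CTL and 51931 ± 898 in aCT1 (SD, n = 3 each). The log2 change was -0.041 (standard error 0.023, limma adjusted p = 0.619), a difference of -2.77% with a 95% interval from -5.99% to 0.558%. The exact two-sided permutation p was 0.1, the smallest that 3 samples against 3 can give.

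SLC2A1 encodes GLUT1, the glucose transporter of the plasma membrane that supplies glycolysis. Its normalized counts were 412, 409.8 and 419 in CTL and 378, 400.6 and 373 in aCT1. All aCT1 samples were lower, with aCT1 replicate 2 nearest to the controls, as in ENO1. The mean was 414 ± 4.94 in CTL and 384 ± 14.6 in aCT1 (SD, n = 3 each). The log2 change of -0.11 was the largest in size among the members (standard error 0.059, limma adjusted p = 0.619, exact permutation p = 0.1). As a difference it was -7.20%, with a 95% interval from -15.1% to 1.40%. Counting error alone gives this gene a standard error of 0.059 on the log2 change, as large as the fitted one. The fitted one draws on a variance trend over all genes. The unadjusted limma p was 0.0917 with that trend and 0.0501 without it. The 3 CTL samples lay closer together than counting error predicts, with a spread 0.244 times that expected from counts.

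ALDOA encodes aldolase A, which splits fructose bisphosphate in the middle of glycolysis, and ranked 13 by mean level. Its normalized counts were 16959, 17569 and 18603 in CTL and 17573, 18888 and 17997 in aCT1. The groups overlapped, with the lowest value in CTL replicate 1 and the highest in aCT1 replicate 2. The log2 change was 0.036 (standard error 0.035, limma adjusted p = 0.860, exact permutation p = 0.4), and its 95% interval ran from -2.74% to 8.07%. With each sample centred on its median, the log2 change was -0.062 and the groups did not overlap. The change was 0.065 with quantile normalization and 0.030 with counts scaled to the sample total. Of these scalings, only median centring turned the direction of ALDOA.

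ADM encodes adrenomedullin, a secreted peptide that widens blood vessels and a classical hypoxia-induced gene. Its normalized counts were 625, 652 and 789 in CTL and 673, 723 and 610.1 in aCT1. The highest value belonged to a control and the lowest to a treated sample, with wide overlap between. The log2 change was -0.039 (standard error 0.082, limma adjusted p = 0.965, exact permutation p = 0.8). VEGFA encodes the growth factor that drives endothelial sprouting. Its normalized counts were 316, 404 and 414 in CTL and 363, 396 and 358 in aCT1, all aCT1 values falling inside the range of the controls. The log2 change was -0.013 (standard error 0.093, limma adjusted p = 0.986, exact permutation p = 0.9). The 95% intervals were wider than for the glycolytic enzymes, from -13.9% to 10.1% for ADM and from -13.8% to 13.9% for VEGFA. The sign of both was not stable. Without CTL replicate 3 the log2 change was 0.063 for ADM and 0.058 for VEGFA.

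The members differed from each other in replicate spread. Within groups, the coefficient of variation, pooled over CTL and aCT1, was 1.24% for ENO1, 2.82% for SLC2A1, 4.23% for ALDOA, 10.8% for ADM and 10.8% for VEGFA. Among the 433 genes with a mean of at least 50 normalized counts, only 7.85% had a larger spread than ADM and 8.08% a larger one than VEGFA, while 97.0% had a larger one than ENO1. The ranking of genes by spread took no account of level. Counting error alone gives ADM a coefficient of variation of 3.84%, VEGFA 5.16%, SLC2A1 5.01%, ALDOA 0.747% and ENO1 0.436%. The spread of ADM was 3.36 times the counting error in CTL and 2.19 times in aCT1, and that of ALDOA 6.26 and 4.97 times. VEGFA stood above counting error in CTL, at 2.78 times, but close to it in aCT1, at 1.06 times. ENO1 went the other way, with 0.665 times in CTL and 3.93 times in aCT1, and SLC2A1 was below counting error in both groups, at 0.244 and 0.743 times.

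**Figure D2:**
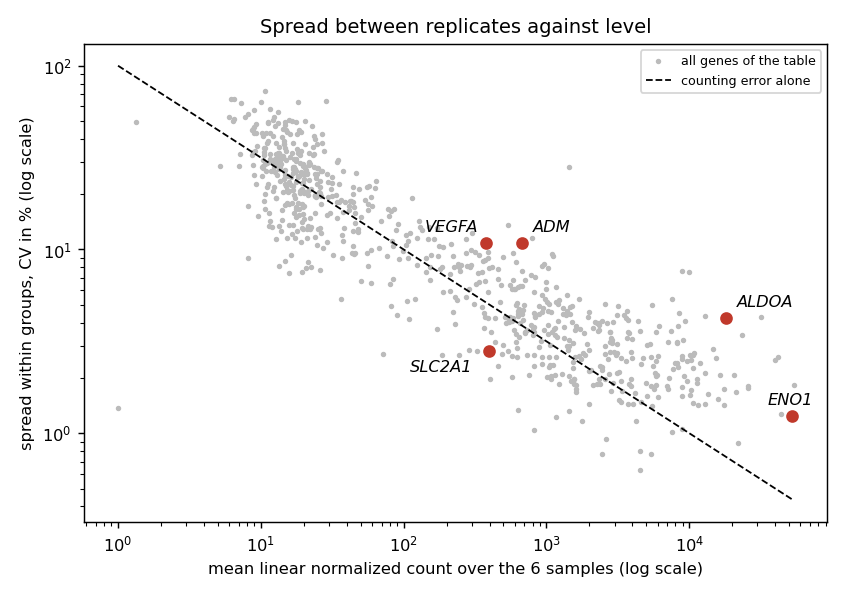
Coefficient of variation within groups, pooled over CTL and aCT1 (y axis, log scale, in percent), against the mean linear normalized count over the 6 samples (x axis, log scale), for all 758 genes (grey) and the 5 members (red). The dashed line is the spread from counting error alone. ADM, VEGFA, ALDOA and ENO1 lie above the line and SLC2A1 lies below it.

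Some of the genes had the same order of samples. In ADM, VEGFA, ALDOA and SLC2A1, CTL replicate 3 was the highest control and aCT1 replicate 2 the highest treated sample. The controls of SLC2A1 spread only 0.244 times as far as counting error predicts, so their order carries little information. The same order was found in 4 of the 14 genes with a mean of at least 50 from the HIF, glycolysis and hypoxia target lists: HK2 (hexokinase 2, the first step of glycolysis), PGK1 (phosphoglycerate kinase 1), BNIP3 (a mitochondrial protein of mitophagy) and EGLN3 (prolyl hydroxylase 3, itself a HIF target). Across all genes tested, 16.1% had this order, and 19.6% of the genes with a mean of at least 50, beside 28.6% of those 14 list genes. PHGDH and SHMT2 of the serine branch had it too, while PSAT1 of that branch did not. VEGFD, PDGFB and THBS1 of the angiogenic list also lacked it. For PHGDH, CTL replicate 3 was only 1.004 times as high as the other controls. The order was noticed in the values and was not tested. ADM was 1.24 times as high in CTL replicate 3 as in the other controls and 1.13 times as high in aCT1 replicate 2 as in the other treated samples. For EGLN3 these ratios were 1.19 and 1.29, for HK2 1.22 and 1.18, for BNIP3 1.20 and 1.08, for VEGFA 1.16 and 1.10, for ALDOA 1.08 and 1.06, for PGK1 1.06 and 1.08, and for SLC2A1 1.02 and 1.07. The median log2 difference from the other samples of the group was also taken over genes with a mean of at least 50. It was -0.018 in CTL replicate 3. In aCT1 replicate 2 it was 0.027, the highest of the 6 samples, beside -0.016 and -0.014 in aCT1 replicates 1 and 3. The part of culture conditions or RNA handling in this pattern was not tested.

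**Figure D3:**
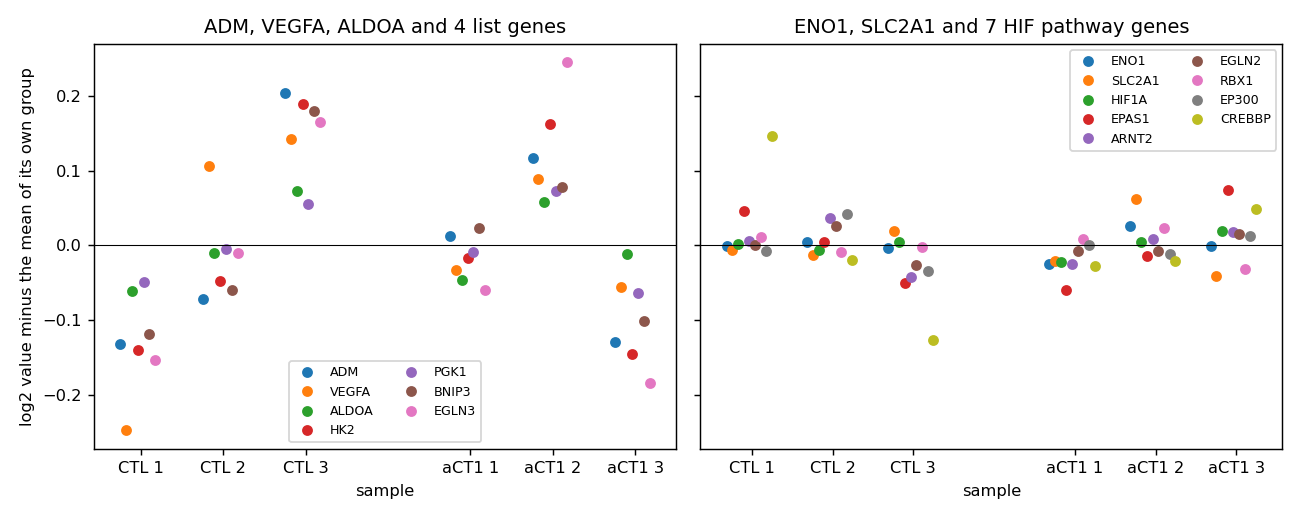
The log2 value of each gene minus the mean of its own group (y axis) in each CTL and aCT1 sample (x axis). The left panel holds only genes highest in CTL replicate 3 among controls and in aCT1 replicate 2 among treated samples. These are ADM, VEGFA, ALDOA, HK2, PGK1, BNIP3 and EGLN3, and their agreement follows from that choice. EDN1, MET, CDKN3, PSAT1, VEGFD, PDGFB and THBS1, which lack that order, and PHGDH and SHMT2, which have it, are in neither panel. In the right panel ENO1, SLC2A1 and the other 7 HIF pathway genes of the table do not share that order, apart from SLC2A1.

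By Pearson correlation of log2 values over the 6 samples, a description with no test, the gene most like ADM among 428 candidates was ELF3, an epithelial transcription factor (r = 0.98), followed by HK2 (r = 0.97). BNIP3 came at position 3 (r = 0.96), PGK1 at 7 (r = 0.93) and EGLN3 at 8 (r = 0.90). HK2, BNIP3, PGK1 and EGLN3 were already named for sharing the highest samples of ADM, so this is not a separate observation. In that gene order their positions were 29, 40, 27 and 24 for VEGFA. They were 69, 34, 59 and 48 for ALDOA, and 30, 132, 39 and 41 for SLC2A1. Other genes of the same lists ran against ADM or apart from it: CREBBP had r = -0.81, EPAS1 -0.79, CDKN3 -0.73, EGLN2 -0.66, EDN1 -0.65, MET -0.48, EP300 -0.45 and ARNT2 -0.40, while HIF1A (0.035) and RBX1 (0.11) were near 0. The pattern of ENO1 was most like those of PLAT, tissue plasminogen activator (r = 0.97), and PTTG1, securin (r = 0.93), and HIF1A came at position 11 (r = 0.83). In both ENO1 and HIF1A every aCT1 value lay below every CTL value, and r includes that difference between groups. The other list genes ranged widely against ENO1. ARNT2 had r = 0.75, EGLN3 0.45, HK2 0.43, PGK1 0.41, EGLN2 0.41, MET 0.15 and CREBBP 0.11. EPAS1 had r = -0.049, BNIP3 -0.057, EDN1 -0.11, CDKN3 -0.32, RBX1 -0.58 and EP300 -0.72. SLC2A1 was closest to CD276 and WDR77 (r = 0.94 each), VEGFA to NOTCH3 and POLD1 (r = 0.94 each), and ALDOA to BLVRA (r = 0.98) and ANXA9 (r = 0.96). Between members, r was 0.90 for ENO1 with SLC2A1, and between 0.72 and 0.74 for the pairs among ADM, VEGFA and ALDOA. For SLC2A1 it was 0.50 with ADM, 0.27 with VEGFA and 0.054 with ALDOA. For ENO1 it was 0.22 with ADM, 0.21 with VEGFA and 0.021 with ALDOA. All points share the 6 samples and their scaling.

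The promoters of the members are shown because HIF binds a short core at its targets, written ACGTG or GCGTG on either strand. RefSeq promoter windows on GRCh38.p14, from 250 bases before to 50 after a start, were given for 4 of the 5 members in 6 windows, with no entry for VEGFA. All 6 windows held the core, as did 52.2% of the windows of the genes of the table and 48.4% of all 35116 windows of the annotation. The 6 windows are not separate observations. ALDOA alone gave several, and its windows chr16:30064029-30064328 and chr16:30064247-30064546 overlap. The bases before the start are printed for ENO1 (chr1:8878687-8878936, minus strand) and ADM (chr11:10304823-10305072, plus strand), and 30 bases around the match for SLC2A1 (chr1:42958826-42958855, minus strand, with its match 25 bases after the start site) and for ALDOA at its middle start (chr16:30064373-30064402, plus strand), where the palindrome gives a match on each strand. Sequences run 5′ to 3′ on the gene's strand, and capitals mark the core on either strand.
ENO1: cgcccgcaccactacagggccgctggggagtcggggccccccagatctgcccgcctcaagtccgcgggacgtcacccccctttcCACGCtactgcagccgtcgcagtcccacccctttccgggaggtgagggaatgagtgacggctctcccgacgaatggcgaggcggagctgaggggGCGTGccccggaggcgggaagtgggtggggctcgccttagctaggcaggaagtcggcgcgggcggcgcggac
ADM: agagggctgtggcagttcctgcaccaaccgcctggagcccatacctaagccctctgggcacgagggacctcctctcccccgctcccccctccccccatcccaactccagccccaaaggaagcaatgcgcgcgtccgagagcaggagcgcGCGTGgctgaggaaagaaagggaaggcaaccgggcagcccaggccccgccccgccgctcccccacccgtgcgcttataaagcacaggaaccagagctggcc
SLC2A1: tagcaacagcgaGCGTGccggtcgctagtc
ALDOA: tggcagggaggcCACGTGatccgagtcccc

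In these windows ENO1 held a match 72 bases before its start and another 166 bases before it on the opposite strand, and ADM held 1 match 101 bases before its start. Among the list genes, 16 of 27 windows (59.3%) held the core. Among the list genes whose values moved with those of ADM across samples, HK2, BNIP3 and PGK1 held the core. EGLN3 had none in its window. A match describes letters only, and binding was not measured.

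The HIF pathway itself was measured through 8 of 13 genes listed for it, and 0 of the 8 passed the test. Their median log2 change was -0.017, beside 0.018 over all genes, and 1 of 8 had an unadjusted limma p under 0.05, against 9.37% of all genes. HIF1A, the oxygen-regulated subunit, had 9021, 8967 and 9032 normalized counts in CTL and 8684, 8848 and 8936 in aCT1. All aCT1 samples were lower, by a narrow margin (log2 change -0.030, standard error 0.025, limma adjusted p = 0.797). EPAS1, which encodes HIF-2 alpha, overlapped between groups, with 702, 682 and 656 normalized counts in CTL and 664, 686 and 729 in aCT1 (log2 change 0.026).

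EP300, a histone acetyltransferase that serves HIF and many other factors as coactivator, was the gene with the unadjusted p of 0.0271 and a limma adjusted p of 0.380. Its normalized counts were 1500.1, 1552 and 1473 in CTL and 1604, 1590.4 and 1617 in aCT1, so every treated sample was higher (log2 change 0.089, standard error 0.036). The unadjusted p was above 0.05 in 6 of the 15 alternatives: 0.0601 without a variance trend, 0.881 with median centring, 0.0699 without CTL replicate 1, 0.0861 without CTL replicate 3, 0.0625 without aCT1 replicate 1 and 0.0709 without aCT1 replicate 3. RBX1, a RING subunit of the ubiquitin ligase that takes up hydroxylated HIF, also had no overlap between groups, with 10573, 10425 and 10466 normalized counts in CTL and 10916, 11024 and 10617 in aCT1 (log2 change 0.049, limma adjusted p = 0.559). It is named because its groups do not overlap, a choice made after its values were seen. Both differences had the opposite sign with median centring of the samples, at -0.0091 for EP300 and -0.049 for RBX1. EGLN3 ranged from 489 to 610.2 normalized counts in CTL and from 461 to 621 in aCT1, and its log2 change was -0.055 (standard error 0.0995).

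**Figure D4:**
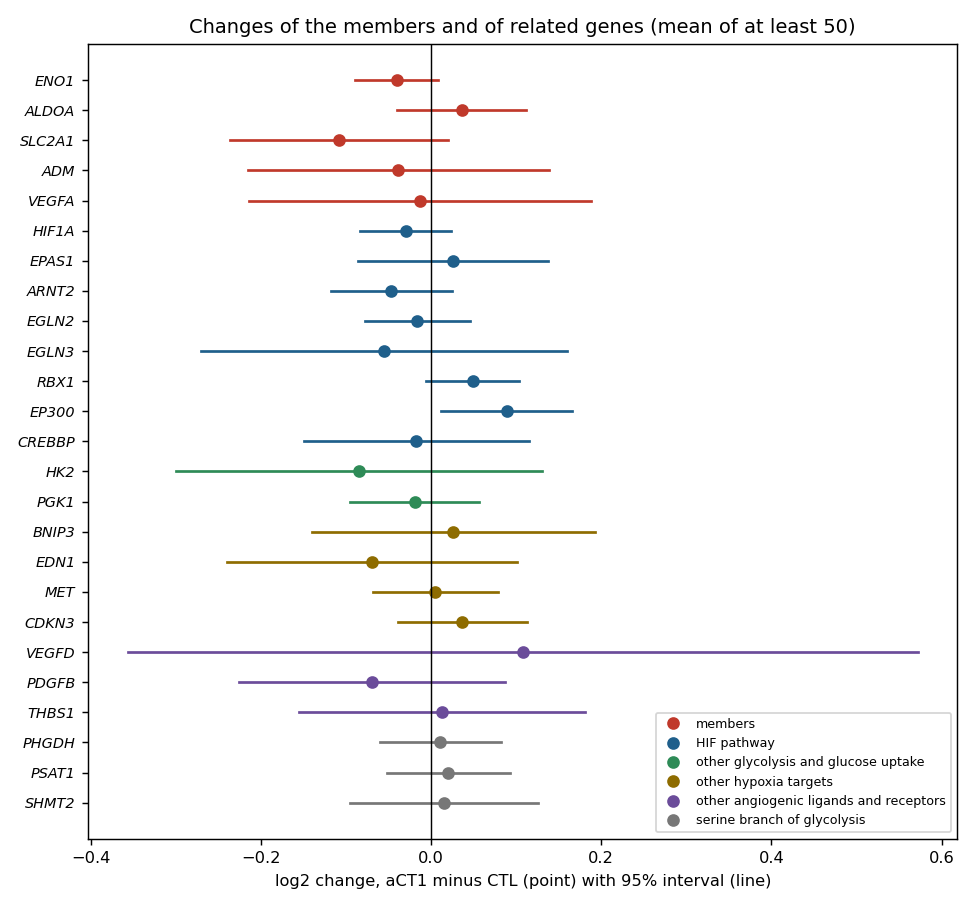
Log2 change, aCT1 minus CTL (x axis, point), with its 95% interval from limma (line) for the 5 members and the 20 list genes with a mean of at least 50 normalized counts, coloured by list. Every interval spans 0 except that of EP300, from 0.012 to 0.17, whose adjusted p is 0.380.

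Of 21 other glycolysis and glucose uptake genes listed, 2 were in the table and 0 passed the test. PGK1 had 30796, 31746 and 33107 normalized counts in CTL and 31247, 33079 and 30076 in aCT1 (log2 change -0.019, 95% interval -0.095 to 0.056). HK2 had 254, 271 and 319.7 in CTL and 261, 296 and 239 in aCT1 (log2 change -0.085, 95% interval -0.30 to 0.13). In both genes the groups overlapped. The serine branch, which draws on a glycolytic intermediate, had 3 of 5 listed genes in the table, with log2 changes from 0.011 to 0.020. The largest was that of PSAT1, phosphoserine aminotransferase, and 0 of the 3 passed.

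Of 32 other hypoxia targets listed, 5 were in the table, with a median log2 change of 0.0051 and 0 past the test. BNIP3 had 448, 467 and 551 normalized counts in CTL and 504, 523 and 462 in aCT1 (log2 change 0.026). The largest difference upwards was that of CDKN3, a cell cycle phosphatase (log2 change 0.037), and downwards that of EDN1, the vasoconstrictor endothelin 1 (log2 change -0.070, standard error 0.079). Of 16 other angiogenic ligands and receptors listed, 6 were in the table and 0 passed. Only 3 of them had a mean of at least 50: VEGFD, a lymphatic growth factor, with a log2 change of 0.11 and a 95% interval from -0.36 to 0.57, PDGFB, a platelet-derived growth factor chain, with -0.070, and THBS1, the angiogenesis inhibitor thrombospondin 1, with 0.013. The endothelial VEGF receptor KDR had a mean of only 9.17 normalized counts. Every aCT1 value of KDR lay above every CTL value, with a limma adjusted p of 0.526.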

How the data were processed

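RNA from 3 CTL and 3 aCT1 samples was counted on an nCounter panel. The authors scaled each sample by its housekeeping genes (nSolver). They deposited log2 values of 758 genes. The linear normalized counts that the authors deposited beside them were used as a signal. Any handling of background is not given in the sources used here. Within each sample 100% of the linear values were whole multiples of a single factor (tolerance 0.01), which gave the recovered counts. No 2 replicates were alike within counting error (chi-square divided by its degrees of freedom 1.70 to 3.24, 6 pairs).

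All 758 genes were fitted on the deposited log2 values with limma 3.58.1 in R 4.3.3, with a variance trend, two-sided p-values and Benjamini-Hochberg adjustment over the table (threshold 0.05). Intervals are 95%. edgeR 4.0.16 (quasi-likelihood) on the recovered counts was an alternative, with the authors' factors as offsets, and both were tested on simulated data. The other alternatives were no variance trend, a pseudocount of 1, median centring, quantile normalization, recovered counts scaled to the sample total, a mean of at least 50, the 459 genes of the study's own table, the replicate number as a block, and each sample left out.

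The members and lists were chosen with earlier results of these data known. From each list the text names the largest rise and fall in log2 change (mean at least 50), genes with an unadjusted p under 0.05, and HIF1A, EPAS1, EGLN3, HK2, PGK1 and BNIP3. For each member it names the 2 most alike genes. The correlations with ADM and ENO1 also name ARNT2, EGLN2, CREBBP and MET. With these, every gene of the HIF, glycolysis and hypoxia target lists with a mean of at least 50 is given there. THBS1, RBX1, KDR, PHGDH and SHMT2 were added after their values were seen.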

Additional observations from a re-analysis of the deposited data

How the results depend on the processing

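Under the 15 alternatives 0 members had an adjusted p under 0.05 in limma or edgeR. The number of members with an unadjusted p under 0.05 was 2 with median centring (ENO1 and SLC2A1), 1 with counts scaled to the sample total (ENO1), and 0 to 1 when single samples were dropped (1 without CTL replicate 3, ALDOA, and 1 without aCT1 replicate 2, SLC2A1). ENO1 and SLC2A1 were below 0 throughout, from -0.14 to -0.013 and from -0.21 to -0.087. Median centring lowered the log2 change of every gene by 0.098. With it the members' median was -0.14, and the log2 change turned to -0.062 for ALDOA, -0.072 for EPAS1, -0.049 for RBX1, -0.0091 for EP300, -0.071 for BNIP3, -0.061 for CDKN3 and -0.077 for PSAT1. With quantile normalization EPAS1 was at -0.016 and BNIP3 at -0.029. The groups of ENO1 then overlapped, and those of SLC2A1 did not. The median of the members was -0.10 to 0.058 when single samples were dropped, with the sign changed without CTL replicate 3 (0.058) and without aCT1 replicate 3 (0.015).

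The same ranges were -0.10 to 0.063 for ADM, -0.14 to 0.058 for VEGFA, -0.18 to 0.037 for EGLN3, -0.17 to 0.0097 for HK2, -0.056 to 0.013 for PGK1, -0.033 to 0.12 for BNIP3, -0.011 to 0.056 for EPAS1, -0.11 to 0.0052 for EDN1, -0.13 to 0.32 for VEGFD and -0.013 to 0.048 for PSAT1. Over the table, limma and edgeR each gave 0 genes at an adjusted p under 0.05 and 71 at an unadjusted one. The first number was 1 without a variance trend (CPA3), 6 with quantile normalization, 1 with a mean of at least 50, 1 over the study's own table and 1 with the replicate block (SFRP1 in the last 3), and 0 to 1 when single samples were dropped (SFRP1 without CTL replicate 3). Among genes with an unadjusted p under 0.05, 49 were higher and 22 lower in aCT1, against 4 and 89 with median centring, 45 and 34 with scaling to the sample total and 41 and 42 after quantile normalization. The paired fit with the replicate block moved the genes with an unadjusted p under 0.05 from 71 to 70 and changed no member's call. The main fit did not treat the replicate numbers as pairs. The deviations of same-numbered samples had correlations across genes of 0.078, 0.19 and -0.23. Samples with different numbers were not compared in this way, so these values cannot decide whether the numbers mark pairs. What causes these differences between settings was not tested. At a mean of 399 counts, SLC2A1 had a counting error as large as its fitted standard error.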
